A study of Homo sapiens with 6 samples.

Results

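The genes described here encode the machinery that carries new proteins into the endoplasmic reticulum (ER), cuts off their signal peptides and attaches their first sugar chains. They were chosen by name as 34 genes of the signal recognition particle (SRP) and its receptor, the Sec61 channel with Sec62 and Sec63, the TRAP and TRAM proteins, signal peptidase and oligosaccharyltransferase. Of these 34 genes, 33 had a probe in the probe table, and all 33 passed the detection filter, out of 10517 genes tested in all. SEC61G, a small subunit of the Sec61 channel, is not listed in that table and was not analysed here. By probe, 39 of 43 were tested, because they had a detection p-value below 0.05 on at least 3 of the 6 arrays.

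The samples are U251 cells, an established human glioblastoma line, profiled as total RNA on one-colour Illumina bead arrays. Cells of both groups had been transduced for 5 days with lentivirus made from a pLKO1.5 vector. The control cells carried a non-target shRNA (shCON, 3 arrays). The other 3 arrays are of cells whose shRNA targets cyclophilin B (shCypB), a prolyl isomerase of the ER. The labels name only shCypB as a construct against cyclophilin B, with no other shRNA or rescue, so loss of cyclophilin B and other effects of that shRNA cannot be told apart. Each group's 3 samples are labelled as biological replicates, and the p-values measure the spread between them.

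Proteins bound for secretion or for membranes carry a hydrophobic signal sequence. SRP binds this sequence as it leaves the ribosome, slows translation and docks at the SRP receptor, which hands the ribosome to the Sec61 channel. Inside the ER, signal peptidase removes the signal sequence and oligosaccharyltransferase moves a preassembled sugar tree from a dolichol lipid onto asparagine residues. A tumour cell that secretes matrix proteins and growth factors sends these through the same gate, and cyclophilin B works on proteins that have just passed it.

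The targeted gene PPIB, which encodes cyclophilin B, was lower on each shCypB array. Its log2 signal was 6.05, 5.68 and 5.35 in shCON and 4.58, 4.44 and 4.81 in shCypB. This dim probe was detected on all 3 control arrays but on 0 of 3 with the knockdown. Only a bound can therefore be stated, a level at least 1.45-fold lower. The probe passed the detection filter through the shCON arrays alone, so no p-value is given for it. The fitted log2 change was -1.08, but -0.71 without background correction and -0.56 with an offset of 50. It could not be checked here that this probe targets the major transcript of the gene, so the bound may not measure the extent of the knockdown. Between 16597 and 18700 of 47231 probes were detected per array, and no array was left out. 6 of 7 glioma and astroglial markers were tested and S100B was not detected on any array. These markers did not move together. GFAP, the astrocyte filament gene, and NES, a neural stem cell filament gene, fell, with log2 changes of -1.84 and -0.66. VIM, another filament gene, fell at the dimmer of its 2 tested probes (-0.39). SLC1A3, a glutamate transporter, rose (0.50), as did the stem cell factor SOX2 at both probes (0.44 and 0.35). The adhesion receptor CD44 rose at the dimmer of 2 tested probes (0.35). The brighter probes of VIM and CD44 did not pass (log2 changes -0.23 and 0.22, adjusted p = 0.12 for each). Among markers of other cell types, 1 of 4 haematopoietic, 1 of 3 epithelial, 1 of 3 endothelial, 0 of 3 neuronal and 0 of 3 oligodendrocyte genes were tested. The summed log2 signal of all 7 glioma and astroglial genes, each at its brightest probe, ran from 67.2 to 68.0 in shCON and from 65.8 to 66.3 in shCypB. In bulk RNA, fewer cells of a type and less RNA per cell cannot be told apart. The part of these marker differences in the results was not tested.

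Most of this machinery did not pass the test, and 3 of its genes rose by more than 1.5-fold. SRP14, of the ribosome-pausing part of SRP, rose 2.48-fold, SEC11C, a catalytic subunit of signal peptidase, rose 1.92-fold, and OSTC, a subunit of oligosaccharyltransferase, rose 1.69-fold. In all, 9 of 33 genes rose, 2 fell and 22 did not pass the test (limma, Benjamini-Hochberg adjusted p below 0.05 over all 17608 tested probes). The 9 risers are 27.3% of the members, against 23.1% of all tested genes called higher, and the 2 that fell are 6.06%, against 20.8% called lower. By probe, 20.3% of all tested probes were called higher and 18.2% lower, 38.5% in all. In either direction 33.3% of the members were called, against 43.8% of all genes. A called change of at least 1.5-fold was found for 3 members, or 9.09%, against 24.5% of all genes. The median log2 change was 0.07 over the members and 0.03 over all tested genes. Without any overlap between shCON and shCypB values were 17 of 33 members, or 51.5%, against 56.8% of all genes. Of these, 12 members were higher and 5 lower in shCypB, against 30.1% and 26.8% of all genes. These shares are descriptions of a list chosen with earlier results known, and no test of the list was made.

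**Figure D1:**
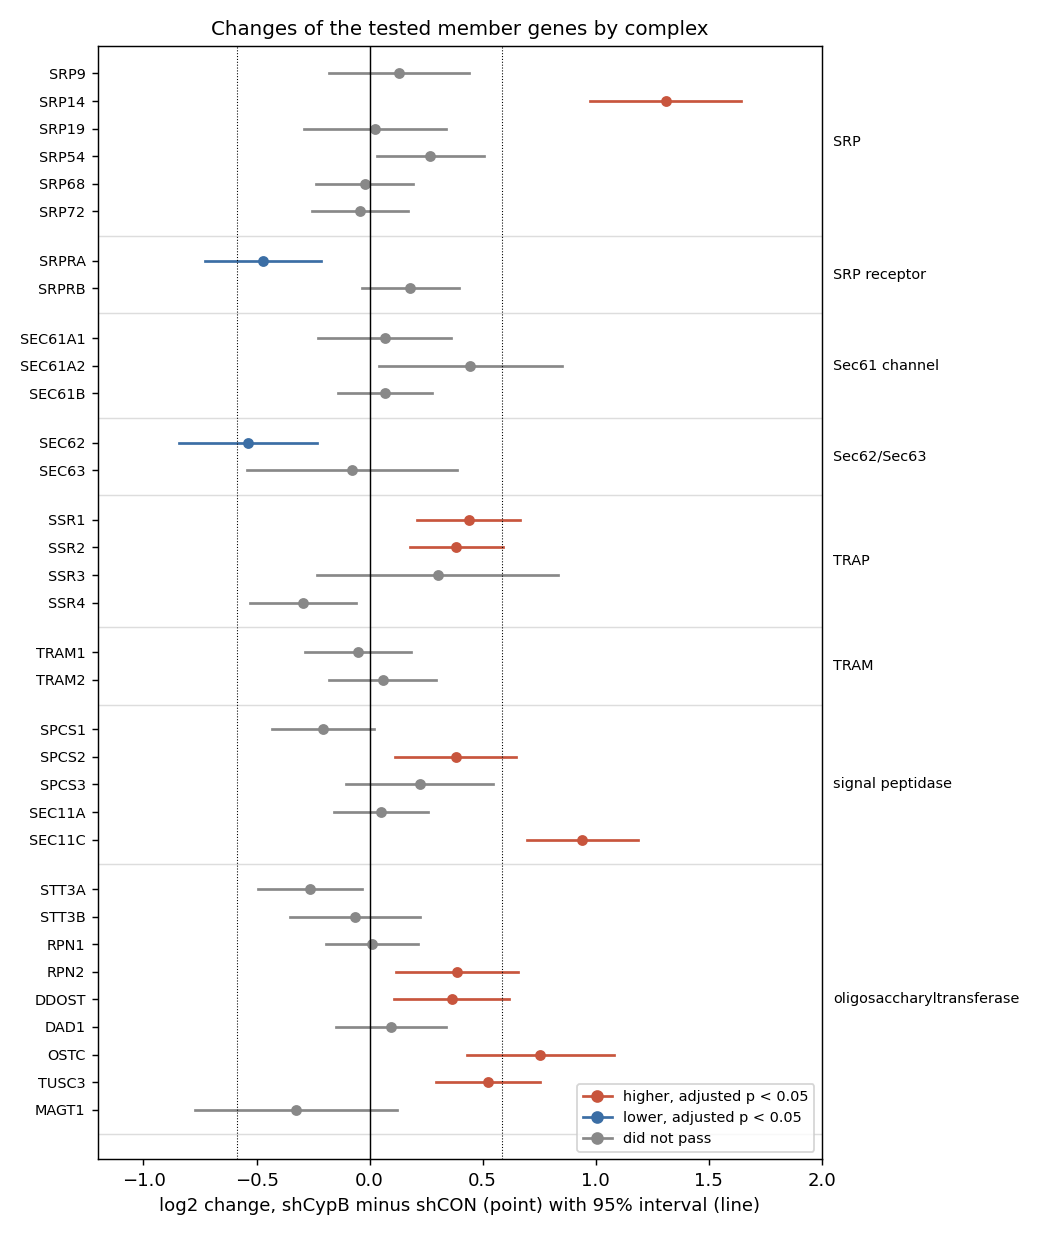
Log2 change (shCypB minus shCON, n = 3 arrays each) of the 33 tested genes on the x axis with 95% intervals from the limma fit, grouped by complex on the y axis; dotted lines mark 1.5-fold in either direction. SRP14 (1.31), SEC11C (0.94) and OSTC (0.76) lie beyond the upper line, and no gene's point lies beyond the lower line.

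**Figure D2:**
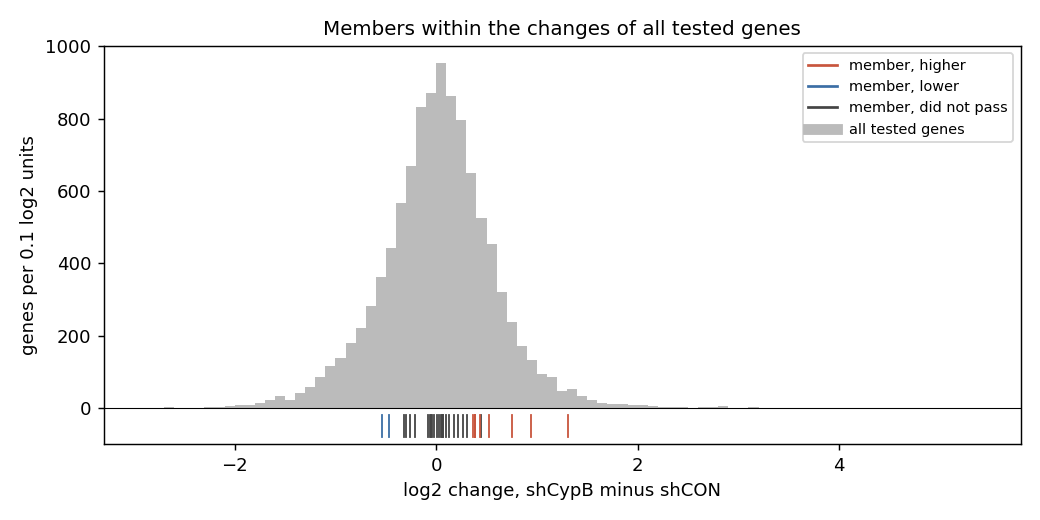
Histogram of the log2 changes of all 10517 tested genes (y axis, genes per 0.1 log2 units) with each of the 33 members drawn as a tick under it. Ticks run from -0.54 (SEC62) to 1.31 (SRP14), within the range of all genes from -3.14 to 5.59.

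The promoters of the 3 genes that rose most are shown here because they are the members whose RNA changed by more than 1.5-fold. Each is the 250 bases before the transcription start in the RefSeq table (build GRCh38.p14), read 5′ to 3′ on the gene's strand. Capitals mark CCAAT, the box bound by the factor NF-Y, and CCACG, the other part of the ER stress response element, on either strand. For SRP14 the first of 2 overlapping windows is given (chr15:40039203-40039452, minus strand), for SEC11C chr18:59139634-59139883 (plus strand) and for OSTC chr4:108650349-108650598 (plus strand).
SRP14: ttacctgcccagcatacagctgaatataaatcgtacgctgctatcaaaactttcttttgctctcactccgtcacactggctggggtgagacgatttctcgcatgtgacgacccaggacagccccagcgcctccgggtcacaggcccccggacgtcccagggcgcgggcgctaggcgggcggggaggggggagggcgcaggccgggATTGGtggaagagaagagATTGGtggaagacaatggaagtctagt
SEC11C: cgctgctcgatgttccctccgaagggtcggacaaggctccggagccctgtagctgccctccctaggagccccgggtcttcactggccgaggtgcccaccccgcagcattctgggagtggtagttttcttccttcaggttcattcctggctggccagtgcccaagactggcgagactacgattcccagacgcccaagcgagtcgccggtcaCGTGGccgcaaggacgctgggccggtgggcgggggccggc
OSTC: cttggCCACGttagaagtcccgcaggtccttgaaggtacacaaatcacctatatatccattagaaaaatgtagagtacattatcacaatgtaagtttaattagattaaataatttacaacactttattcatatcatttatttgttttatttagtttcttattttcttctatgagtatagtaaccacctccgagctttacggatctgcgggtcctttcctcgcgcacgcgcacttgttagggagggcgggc

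The SRP14 sequence differed from the other pair in which of these letters it held. The SRP14 window held CCAAT 2 times, 45 and 27 bases before the start on the other strand, and no CCACG. The SEC11C window held CCACG 40 bases before the start, where it overlaps the E-box CACGTG, and no CCAAT. The OSTC window held CCACG 245 bases before the start and no CCAAT, and had a GC content of 38.4%, against 60% for SRP14 and 66.8% for SEC11C.

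Over windows of 300 bases (250 before to 50 after the start), 28 of 34 member genes matched the RefSeq table with 36 windows. TUSC3, SRPRA, TRAM1, SPCS1, STT3B and RPN1 had no window, and of these TUSC3 rose and SRPRA fell. On either strand CCACG was in 63.9% of the 36 member windows. It was in 38.1% of all 35093 windows of the table and in 43.1% of its 22180 protein-coding windows. CCAAT was in 50% of member windows, 34.6% of all and 34.7% of protein-coding ones. The E-box CACGTG was in 13.9% against 7.26% of all and 8.34% of protein-coding windows, and the unfolded protein response element TGACGTGG, which contains CCACG on its other strand, in 11.1% against 0.729% and 0.762%. The 4 member windows with TGACGTGG belong to SEC62, SRP19, SSR3 and SSR4, of which SEC62 fell and the others did not pass. The full ER stress response element (CCAAT, a spacer of fixed length and CCACG), its variant ERSE-II (ATTGG and CCACG around a single base) and the amino acid response element TGATGCAAT were in 0 of 36 member windows and in 0.0769%, 0.0541% and 0.237% of all windows (0.104%, 0.0676% and 0.171% of protein-coding ones). The median GC content was 64.8% in member windows, 58.7% in all and 62.3% in protein-coding ones. These are matches of letters in fixed windows, and several windows overlap. Some genes had several windows, so the shares are of windows and not of genes.

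Within SRP, SRP14 rose and the other 5 subunits did not pass (median log2 change 0.08). That is 1 of 6 called, or 16.7%, against 43.8% of all tested genes. SRP14 pairs with SRP9 to form the domain of SRP that slows the ribosome. Its log2 signal was 11.44, 11.18 and 10.92 in shCON and 12.39, 12.54 and 12.53 in shCypB. Every shCypB array lay above every shCON array, and the log2 change was 1.31 ± 0.14 (SE, adjusted p = 0.00048), in rank 183 of 10517 genes from the highest. The second SRP14 probe gave 9.89, 9.80 and 9.84 against 10.998, 10.96 and 10.96, a log2 change of 1.13 ± 0.09 (adjusted p = 0.00013).

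SRP9, the partner of SRP14, did not rise with it. Its log2 signal was 12.05, 12.19 and 12.52 in shCON and 12.40, 12.36 and 12.40 in shCypB, so the groups overlapped (log2 change 0.13 ± 0.13, adjusted p = 0.49). The 95% interval of its change, -0.18 to 0.44, lies below that of SRP14, which runs from 0.98 to 1.64. Its second probe had a log2 change of 0.01 with an interval of -0.51 to 0.54. The within-array difference SRP9 minus SRP14 was lower in shCypB by a shift of -1.18 on the log2 scale, with no overlap of the groups. Its exact two-sided permutation p was 0.1, the smallest that 3 against 3 arrays can give.

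SRP54, the GTPase that holds the signal sequence, had a log2 signal of 10.50, 10.32 and 10.47 in shCON and 10.64, 10.80 and 10.66 in shCypB. The groups did not overlap, but its log2 change of 0.27 ± 0.10 did not pass (adjusted p = 0.071). SRP19, which helps assemble the particle, and the protein pair SRP68 and SRP72 had log2 changes of 0.02, -0.02 and -0.04, with overlapping groups. The intervals of these 3 genes stayed between -0.29 and 0.34.

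Of the SRP receptor, the subunit SRPRA fell and SRPRB did not pass. SRPRA encodes the GTPase that meets SRP54, and SRPRB its membrane anchor. SRPRA had a log2 signal of 9.24, 8.93 and 8.99 in shCON and 8.57, 8.58 and 8.61 in shCypB. All shCypB values were below all shCON values, with a log2 change of -0.47 ± 0.11 (adjusted p = 0.012). SRPRB had 9.96, 9.99 and 9.82 in shCON and 10.13, 10.09 and 10.08 in shCypB, a log2 change of 0.18 ± 0.09 (adjusted p = 0.17). The within-array difference SRPRA minus SRPRB shifted by -0.65 without overlap of the groups (exact permutation p = 0.1).

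No gene of the Sec61 channel passed (0 of 3 tested, against 43.8% of all genes called). SEC61A1 encodes the pore-forming subunit, and its log2 signal was 11.65, 11.64 and 11.997 in shCON and 11.93, 11.78 and 11.77 in shCypB. SEC61B, a small subunit, had 12.32, 12.29 and 12.30 in shCON and 12.32, 12.45 and 12.34 in shCypB. The groups overlapped for SEC61A1 and, by a narrow gap, not for SEC61B. Their log2 changes were both 0.07 (adjusted p = 0.72 and 0.59), with intervals of -0.23 to 0.36 and -0.14 to 0.28, so changes of 1.5-fold lie outside both. SEC61A2, a second pore gene, was dim, with 6.03, 6.61 and 6.04 in shCON and 6.83, 6.54 and 6.65 in shCypB. The groups overlapped through shCON replicate 2, and the log2 change of 0.45 ± 0.17 did not pass (adjusted p = 0.081). Without shCON replicate 2 it was 0.64 and passed (adjusted p = 0.0098).

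Sec62 and Sec63 assist proteins that enter the channel with weak or late signals, and SEC63 also recruits the chaperone BiP. SEC62 fell, from a log2 signal of 6.34, 6.20 and 6.46 in shCON to 5.65, 6.02 and 5.72 in shCypB, without overlap. Its log2 change was -0.54 ± 0.13 (adjusted p = 0.015). The size depends on the background step, being -0.30 without background correction, -0.36 with an offset of 50 and -0.34 in the authors' processed table, each past the test (adjusted p = 0.017, 0.011 and 0.0082). The call was lost without shCypB replicate 1 (log2 change -0.47, adjusted p = 0.056) and without shCypB replicate 3 (-0.50, adjusted p = 0.055). SEC63 had 7.28, 7.20 and 7.70 in shCON and 6.94, 7.44 and 7.57 in shCypB and did not pass (adjusted p = 0.79). The falls of SRPRA and SEC62 depend on the scaling of the arrays. With median scaling, the median change of all tested probes moved to 0.22, and the log2 changes of these genes were -0.19 and -0.34 and missed the threshold (adjusted p = 0.62 and 0.32), or -0.41 and -0.56 relative to that median.

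TRAP is a complex beside the channel that helps selected signal sequences to open it. Of its 4 genes 2 rose (50% called, against 43.8% of all genes, median log2 change 0.34). SSR1, the alpha subunit, had a log2 signal of 9.85, 9.86 and 9.96 in shCON and 10.40, 10.22 and 10.37 in shCypB, a log2 change of 0.44 ± 0.10 (adjusted p = 0.010). SSR2, the beta subunit, rose at its brightest probe from 11.65, 11.70 and 11.58 to 12.02, 12.02 and 12.05 (log2 change 0.38 ± 0.09, adjusted p = 0.012).

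The SSR2 call rests on the choice of probe. A second probe fell from 7.58, 7.34 and 7.29 to 6.85, 7.03 and 7.15, a log2 change of -0.40 ± 0.12 (adjusted p = 0.039). Opposite calls at 2 probes were found for 22 of the 2666 genes that had several tested probes, and for 1 of the 5 such members, SSR2. With the mean of its tested probes the log2 change was -0.01 (adjusted p = 0.97). Another SSR2 probe was detected on 1 of 6 arrays and was not tested.

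SSR4, the delta subunit, was lower on every shCypB array, at 11.83, 11.91 and 11.95 against 12.19, 12.31 and 12.08. Its log2 change of -0.29 ± 0.10 did not pass (adjusted p = 0.052). It passed under 8 of 17 alternatives, namely without shCON replicate 3 (log2 change -0.35, adjusted p = 0.043) and under 7 that kept all arrays, and its adjusted p ranged from 0.0043 to 0.93. SSR3, the gamma subunit, was detected on 2 of 3 shCON arrays and 3 of 3 shCypB arrays, with 5.13, 5.86 and 5.36 against 5.86, 5.37 and 6.02. Its interval of -0.23 to 0.84 leaves its change unsettled. TRAM1 and TRAM2, membrane proteins next to the channel, did not pass, with log2 changes of -0.05 and 0.06 and intervals of -0.29 to 0.18 and -0.18 to 0.29.

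**Figure D3:**
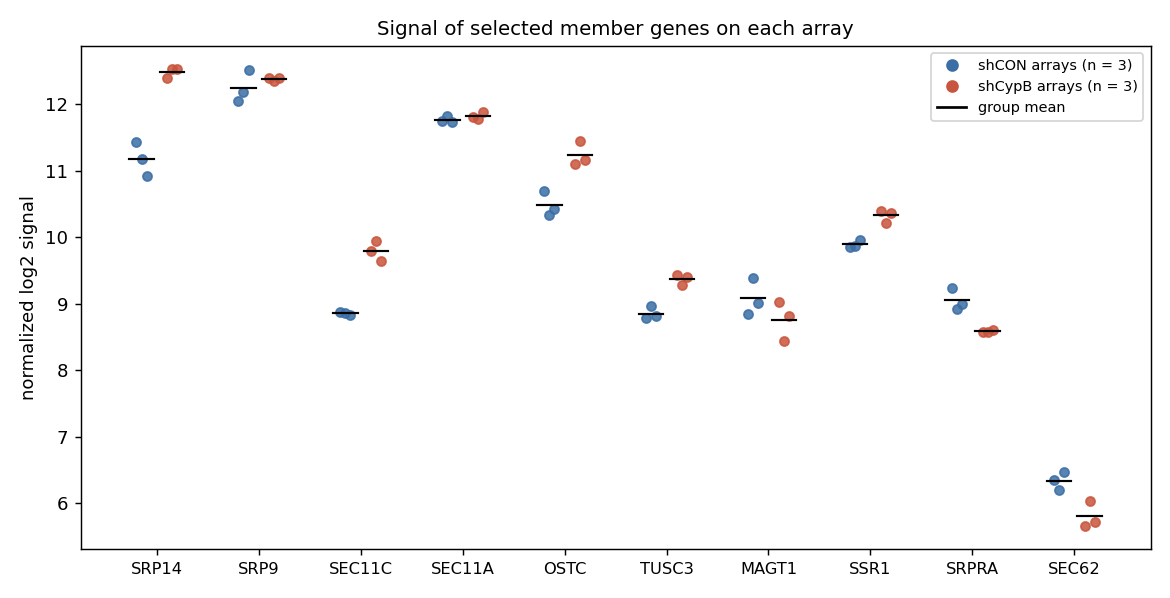
Normalized log2 signal (y axis) of 10 member genes on each of the 3 shCON and 3 shCypB arrays, with a line at each group mean; heights of different genes come from different probes and are not comparable. The groups separate for SRP14, SEC11C, OSTC, TUSC3, SSR1, SRPRA and SEC62 and overlap for SRP9, SEC11A and MAGT1.

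Signal peptidase holds either SEC11A or SEC11C as its catalytic subunit, and SEC11C rose while SEC11A did not pass. SEC11C had a log2 signal of 8.87, 8.87 and 8.83 in shCON and 9.79, 9.94 and 9.65 in shCypB. The shCON arrays lay close together and every shCypB array lay above them, with a log2 change of 0.94 ± 0.11 (adjusted p = 0.00053). SEC11A had 11.76, 11.82 and 11.74 in shCON and 11.81, 11.78 and 11.89 in shCypB. Its groups overlapped and its log2 change of 0.05 had an interval of -0.16 to 0.26. The within-array difference SEC11A minus SEC11C went from 2.92 ± 0.03 to 2.03 ± 0.20 (SD, n = 3, exact permutation p = 0.1), a shift of -0.89.

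Of the accessory subunits of signal peptidase, SPCS2 passed and SPCS1 and SPCS3 did not. SPCS2 had 10.81, 10.87 and 10.74 in shCON and 11.06, 11.11 and 11.38 in shCypB (log2 change 0.38 ± 0.11, adjusted p = 0.033). The groups did not overlap, with shCypB replicate 3 the highest. Its call was lost without shCON replicate 1, 2 or 3 (adjusted p = 0.072, 0.054 and 0.083) and without shCypB replicate 2 or 3 (adjusted p = 0.056 and 0.10). It was also lost with the replicate number as a block (adjusted p = 0.073). SPCS1 had 10.25, 10.18 and 10.07 against 10.02, 9.88 and 9.98, lower on every shCypB array but not past the test (log2 change -0.21 ± 0.10, adjusted p = 0.13). SPCS3 had log2 changes of 0.22 and 0.29 at its 2 probes (adjusted p = 0.25 and 0.059). The median over the 5 genes was 0.22.

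Oligosaccharyltransferase exists as a complex around STT3A, which acts while the chain enters the ER, and another around STT3B, which acts on sites that were missed. The genes that rose were OSTC, TUSC3, RPN2 and DDOST, 4 of 9, and the other 5 did not pass (median log2 change 0.10). The share called, 44.4%, was near the 43.8% of all tested genes. Neither catalytic gene passed. STT3A had 10.69, 10.62 and 10.66 in shCON and 10.26, 10.47 and 10.45 in shCypB, below shCON on every array, with a log2 change of -0.26 ± 0.10 (adjusted p = 0.070). With median scaling it was 0.02, or -0.21 relative to the median of all probes. STT3B had 7.62, 7.72 and 7.98 against 7.82, 7.62 and 7.69, with overlap (log2 change -0.06 ± 0.12, adjusted p = 0.72). Their within-array difference shifted by -0.20 with overlapping groups (exact permutation p = 0.4).

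OSTC, known as a subunit of the STT3A complex that contacts the channel, rose at all 3 of its probes. At the brightest it had 10.69, 10.33 and 10.43 in shCON and 11.11, 11.45 and 11.16 in shCypB, a log2 change of 0.76 ± 0.14 (adjusted p = 0.0045). Its other probes had log2 changes of 0.78 ± 0.11 and 0.58 ± 0.13 (adjusted p = 0.0013 and 0.0099), and the groups overlapped at none of the 3.

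The oxidoreductase subunits TUSC3 and MAGT1 replace each other in the STT3B complex. TUSC3 rose, from 8.78, 8.96 and 8.81 in shCON to 9.43, 9.29 and 9.40 in shCypB, a log2 change of 0.52 ± 0.10 (adjusted p = 0.0050). MAGT1 had 8.85, 9.39 and 9.003 in shCON and 9.02, 8.44 and 8.82 in shCypB. Its groups overlapped, and the log2 change of -0.32 ± 0.19 did not pass (adjusted p = 0.23). The within-array difference MAGT1 minus TUSC3 had a shift of -0.85 without overlap of the groups (exact permutation p = 0.1). The difference of 2 probes is no ratio of the transcripts, so only its shift is compared.

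The subunits shared by both complexes changed by less than 1.5-fold. RPN2 rose from 9.05, 9.21 and 9.16 to 9.70, 9.37 and 9.52 (log2 change 0.39 ± 0.12, adjusted p = 0.033). DDOST rose from 11.49, 11.28 and 11.35 to 11.83, 11.59 and 11.78 (log2 change 0.36 ± 0.11, adjusted p = 0.033). For both genes the groups did not overlap, but the gap between them was smaller than the range within shCypB. The RPN2 call was lost without shCON replicate 1, 2 or 3 (adjusted p = 0.091, 0.052 and 0.061), without shCypB replicate 1 or 3 (adjusted p = 0.10 and 0.083) and with the replicate block (adjusted p = 0.077). The DDOST call was lost without shCON replicate 2 or 3 (adjusted p = 0.090 and 0.074) and without shCypB replicate 1 or 3 (adjusted p = 0.11 and 0.10). RPN1 had 11.88, 11.95 and 11.94 against 11.98, 11.88 and 11.94, and DAD1 had 12.02, 11.82 and 11.85 against 11.91, 12.10 and 11.97. Both overlapped, with intervals of -0.19 to 0.22 and -0.15 to 0.34.

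**Figure D4:**
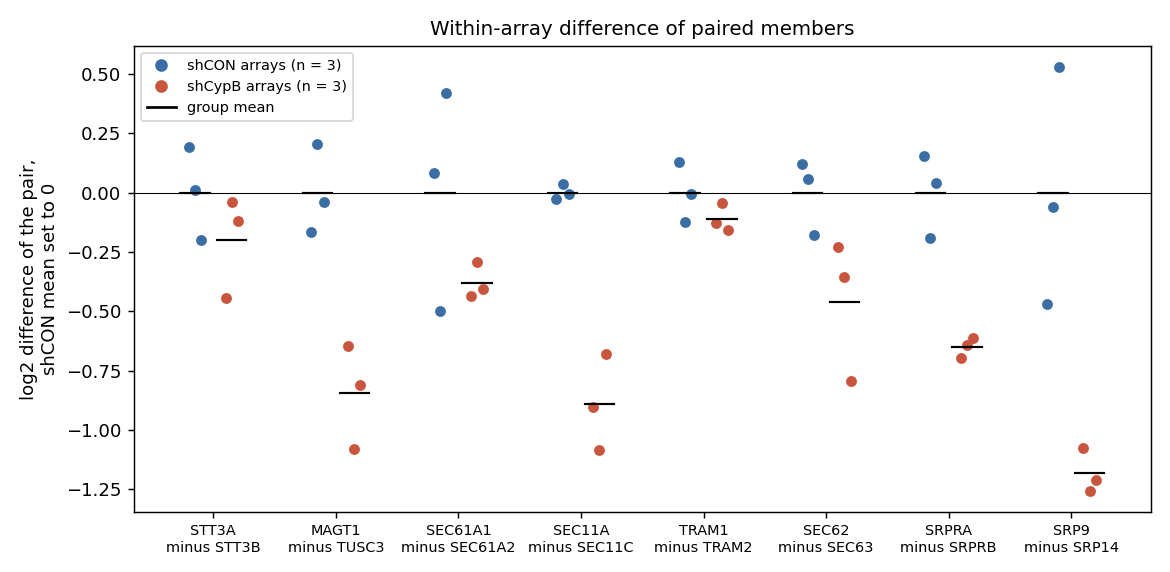
Log2 difference of 2 member genes on the same array (y axis, shCON mean set to 0) for 8 pairs on the 3 shCON and 3 shCypB arrays, with lines at the group means. The groups separate for MAGT1 minus TUSC3, SEC11A minus SEC11C, SEC62 minus SEC63, SRPRA minus SRPRB and SRP9 minus SRP14.

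Over the 8 pairs compared, 5 had groups that did not overlap, each at the smallest exact permutation p of 0.1, which is 0.16 after Benjamini-Hochberg adjustment over the pairs. The design cannot reach a lower p. Among all tested single genes, 56.8% had groups that did not overlap, and no such share was computed for other pairs. Each of the 5 pairs holds a gene called on its own, so its shift repeats that call in part. The shift of SEC62 minus SEC63 was -0.46 (exact permutation p = 0.1), that of SEC61A1 minus SEC61A2 was -0.38 (exact permutation p = 0.4) and that of TRAM1 minus TRAM2 was -0.11 (exact permutation p = 0.2). The sign of a shift follows the order in which the pair is named.

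**Figure D5:**
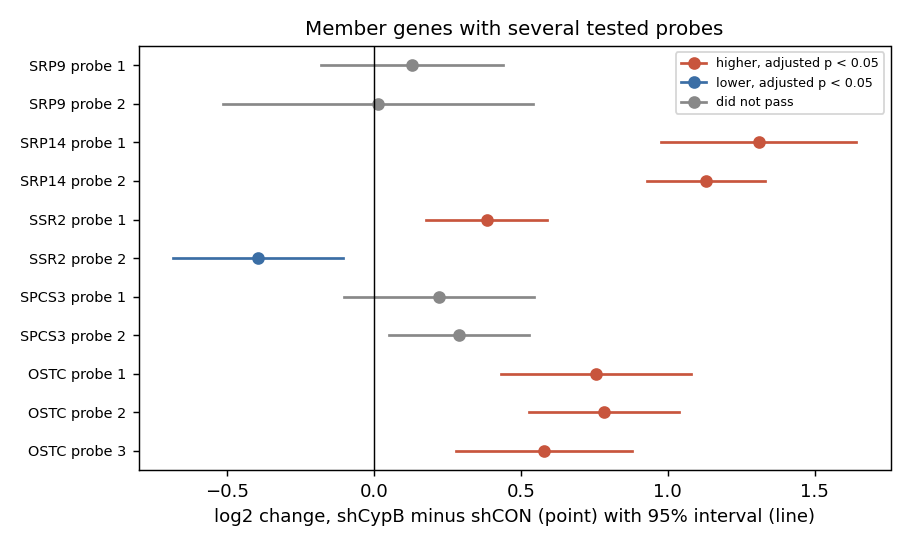
Log2 change (x axis, shCypB minus shCON, with 95% interval) of each tested probe of the 5 members with several tested probes, brightest first. The 2 probes of SRP14 and the 3 of OSTC are all higher, and the 2 probes of SSR2 lie on opposite sides of 0 (0.38 and -0.40).

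Of the 22 members that did not pass, 19 had a 95% interval within 1.5-fold in either direction. The intervals of the other 3 (SEC61A2, SSR3 and MAGT1) reach beyond it. These intervals are those of the quantile-normalized signals and were not computed with median scaling. Under that scaling the log2 changes of SRP54, SPCS3 and SRPRB were 0.55, 0.50 and 0.46. Relative to the median of all probes they were 0.33, 0.28 and 0.24. At an unadjusted p below 0.05, 4 of the 22 were counted, namely SRP54, SEC61A2, SSR4 and STT3A. Other probes of SEC63, SPCS2 and TUSC3 were detected on 2, 0 and 2 of 6 arrays and were not tested.

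Neighbouring steps of ER entry are given for comparison, with lists chosen with earlier results known. Among 18 tested translocon partners and accessory oligosaccharyltransferase genes, 7 rose, 4 fell and 7 did not pass (61.1% called, against 43.8% of all genes). RRBP1, a ribosome-binding protein of the rough ER, had a log2 change of -1.99 ± 0.12 (adjusted p = 5.5e-05). TMCO1, of a translocon for multipass proteins, rose (log2 change 0.70 ± 0.09, adjusted p = 0.00092). NOMO3 had a log2 change of 0.68 ± 0.18 (adjusted p = 0.019), but its call was lost without shCypB replicate 1 (adjusted p = 0.057) or 3 (adjusted p = 0.066) and with no detection filter (adjusted p = 0.051). Its log2 change was 0.36 without background correction, 0.41 with an offset of 50 and 0.33 in the authors' processed table, and its sequence is near-identical to NOMO1 and NOMO2.

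The dolichol-linked sugar that oligosaccharyltransferase transfers is built by another set of genes. Of 21 tested, 3 rose, 5 fell and 13 did not pass (38.1% called against the same 43.8%, median log2 change 0.02). ALG6, which adds the first glucose, fell by 1.04 ± 0.13 (adjusted p = 0.00071). DPM3, a subunit of the enzyme that makes dolichol-phosphate-mannose, fell by 0.99 ± 0.10 (adjusted p = 0.00036). DPAGT1, which starts the sugar tree, fell by 0.76 ± 0.10 (adjusted p = 0.0011).

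After transfer, sugars are trimmed and read by lectins. Of 11 such genes, 3 rose, 1 fell and 7 did not pass (36.4% called, against 43.8% of all genes). MCFD2, a partner of the cargo receptor LMAN1, rose with a log2 change of 1.30 ± 0.12 (adjusted p = 0.00024), MAN1B1, a mannosidase, rose by 0.67 ± 0.09 (adjusted p = 0.00098), and LMAN2, a cargo lectin, fell by 0.70 ± 0.10 (adjusted p = 0.0014).

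The ER membrane protein complex inserts membrane segments. Of its 10 genes, 4 rose, 2 fell and 4 did not pass (60% called, against 43.8% of all genes). EMC4 fell by 2.64 ± 0.12 (adjusted p = 3.4e-05), while EMC3 (log2 change 0.68 ± 0.10, adjusted p = 0.0017) and EMC7 (0.63 ± 0.10, adjusted p = 0.0019) rose. Of 6 tail-anchor insertion genes, GET1 rose (log2 change 0.47 ± 0.11, adjusted p = 0.013) and 5 did not pass. That is 16.7% called, against 43.8% of all genes.

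The GPI transamidase cleaves a C-terminal signal and attaches a lipid anchor. It had 1 of 5 genes higher, 3 lower and 1 that did not pass (80% called, against 43.8% of all genes). In lists this short such shares are descriptions only. PIGS rose (log2 change 0.77 ± 0.17, adjusted p = 0.010), and GPAA1 and PIGT fell by 0.73 ± 0.14 and 0.51 ± 0.09 (adjusted p = 0.0046 and 0.0030). The calls of DPAGT1, LMAN2, GPAA1 and PIGT were lost with median scaling (adjusted p = 0.14, 0.21, 0.17 and 0.52). Their log2 changes under it were -0.47, -0.41, -0.45 and -0.23, or -0.69, -0.63, -0.67 and -0.46 relative to the median of all probes.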

How the data were processed

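Total RNA of 6 samples was measured on Illumina bead arrays. The authors deposited the bead signal intensity of 47231 probes per array, on a linear scale and without normalization per the file headers, with a detection p-value beside each. A second table holds the authors' processed intensity, made by a method that the sources do not describe (the submitters' processing notes name Partek), and served as an alternative. The file header pairs each column with its sample.

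Signals were corrected by normexp with limma 3.58.1 (R 4.3.3), the negative control mean and spread being inferred from the detection p-values, with an offset of 16, then quantile normalized and log2 transformed. Probes detected at p below 0.05 on at least 3 arrays were tested with lmFit and eBayes, group as the only term, and p-values were adjusted (Benjamini-Hochberg) over 17608 probes. Errors beside log2 changes are standard errors, and adjusted p-values come from this fit or from the named alternative. Precision is limited by having 3 arrays per group. Where no array of a group detected a probe, the bound uses, per array, the higher of its own value and the lowest detected signal.

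Symbols were updated through Entrez identifiers to RefSeq (GRCh38.p14). The probe table named 1 gene for 30113 probes, several for 8 and did not list 17110. Each gene takes the values of its brightest tested probe by mean. Every tested member was named, with PPIB and, of each neighbouring list, up to 3 called genes with the greatest changes. Members, lists and pairs were chosen with earlier results of these data known. The fit was also tried on simulated data, of which no result is reported here. Promoter letters were searched with Python 3.11.15. Same-numbered arrays of the groups did not deviate together (r of deviations -0.10, -0.11 and 0.01), so the replicate number was not taken as a pairing. Probe specificity was not checked.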

Additional observations from a re-analysis of the deposited data

How the results depend on the processing

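Over 17 alternatives, 5 of the 11 called members (SRP14, SEC11C, OSTC, TUSC3 and SSR1) passed in the same direction in each, 6 lost the call in at least 1, and 18 of the 22 that did not pass were called under none. The other 4 were called under 8 (SSR4), 5 (SRP54), 4 (SEC61A2) and 4 (STT3A) alternatives. The count called higher was 9, with 6 to 11 under the alternatives that kept all arrays and 6 to 8 when 1 array was left out. The count called lower was 2. It was 4 without background correction, with an offset of 50, with detection p below 0.01 on all 6 arrays and with an intensity trend and robust prior, 0 with median scaling, and 1 to 3 when 1 array was left out. Median scaling moved the median change of all tested probes to 0.22, left 917 probes called lower against 3205, and made 80.5% of all calls higher against 52.7%. Under it the median log2 changes of the complexes were 0.34 for SRP, 0.14 for the SRP receptor and 0.33 for Sec61. They were -0.063 for Sec62 and Sec63, 0.51 for TRAP, 0.28 for TRAM, 0.50 for signal peptidase and 0.35 for oligosaccharyltransferase. Log2 changes were 0.72 for SSR1, 0.63 for SSR2, 0.65 for SPCS2, 0.68 for RPN2, 0.61 for DDOST, 0.81 for TUSC3 and 0.75 for GET1, all still called. Relative to 0.22 the complexes' medians, in the same order, are 0.12, -0.09, 0.10, -0.29, 0.29, 0.06, 0.28 and 0.13. When the probes of a gene were averaged, the TRAP median was 0.15. The SSR2 change was then -0.0060 (adjusted p = 0.97), its 2 tested probes having changes of opposite sign. When 1 array was left out, the medians ranged from 0.024 to 0.15 for SRP, 0.064 to 0.18 for Sec61, 0.13 to 0.32 for signal peptidase, 0.043 to 0.16 for oligosaccharyltransferase, -0.40 to -0.18 for Sec62 and Sec63, -0.18 to -0.089 for the SRP receptor, 0.26 to 0.44 for TRAP and -0.04 to 0.05 for TRAM. The cause of these differences was not tested. With the replicate number as a block, 7 members were higher and 2 lower (3022 and 2764 probes overall), and SPCS2 and RPN2 were no longer called. Not every array deviated most like the array of its own number in the other group. With no detection filter 6 members were called higher, SPCS2, RPN2 and DDOST not being among them. The dim probes of SSR3, SEC61A2 and SEC62 lie near the detection floor (5.12 to 5.29 on the log2 scale), which limits their changes.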
